A study of Mus musculus with 90 samples.

Results

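The frontal cortex of control resident mice was compared between 30 and 120 min after a mock exposure, in 5 libraries at 30 min and 6 libraries at 120 min, which are 11 of the 90 libraries of the series. They were chosen by region, condition and time as the sample titles give them. Residents were male C57BL/6J mice that had held a territory with a female, and the female was taken out 3 h before the test. For 5 min a control resident met the wire cage used to hold an intruder, with a paper cup inside, and it was then left in the dark until it was killed by cervical dislocation 30 or 120 min later. Residents of the intruder-exposed groups met an unfamiliar BALB/cJ male in that cage. Each time point holds other animals, since the measurement is terminal, and ages are not given in the sources used here. Labels name 1 animal per library, while the design text speaks of pooled RNA samples, so how far a library stands for a single animal is not settled. The comparison asks which transcripts of the cortex differ between 30 and 120 min after the mock exposure, without a social opponent. The series holds no unexposed group, so a response to the exposure and the passing of time cannot be told apart.

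A new stimulus switches on immediate-early genes in cortical neurons within minutes, through kinases that act on transcription factors already bound at their promoters. Their transcripts are short-lived and decline over the next hours. Handling and novelty also release corticosterone, which enters the brain, binds the glucocorticoid receptor and induces a slower set of genes in neurons, glia and vessels.

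Each library held 38.6 to 53.8 M reads on genes. Excitatory neuron markers summed to 6663 to 7793 counts-per-million (CPM) and hypothalamic peptide markers to 1.51 to 5.23 CPM over the 11 libraries. These sums were not taken for the other regions, so they do not tell frontal cortex from amygdala. No pair of libraries in a group matched within sampling noise. Some technical features move with time. All 28 libraries of 30 min in the series carry the tag ISO in their column headers and all 62 later ones the tag CERV, whose meaning is not given in the sources used here. The 5 control libraries of 30 min share 1 leading sequencing index and the 6 of 120 min share another, so that time, header tag and index cannot be told apart in this comparison. Reads outside annotated features took 11.6% ± 0.676 (SD, n = 5) at 30 min and 10.2% ± 0.688 (SD, n = 6) at 120 min, a difference of -1.42 percentage points with an exact permutation p of 0.013 and an adjusted p of 0.0779 over 6 such quantities. The other 5 quantities, among them depth and the mitochondrial share, had adjusted p-values of 0.113 to 0.942. Striatal markers summed to 334 to 656 CPM at 30 min and 301 to 1248 CPM at 120 min, with the highest sum in replicate 1 of 120 min. Choroid plexus markers summed to 242 CPM in replicate 1 of 30 min, to 80.4 CPM in replicate 4 and to at most 33.7 CPM in the 9 other libraries. The part of these features in the results below was not tested, except where a value without those libraries is given.

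From 30 to 120 min, 755 of 17091 genes tested were called (4.42%), 331 higher (1.94%) and 424 lower (2.48%) at 120 min. A gene is called where the edgeR quasi-likelihood test gives a Benjamini-Hochberg adjusted p below 0.05. Most of the changes were small: the median absolute log2 fold change of the called genes was 0.27, 617 of them moved by less than 0.5, and 29 by 1 or more. Genes called lower included immediate-early transcription factors and genes of vessel walls, and genes called higher included targets of corticosterone. The 2 groups did not overlap for 489 of the 755 genes and for 1027 of all 17091 tested (6.01%). The count rested on single libraries: it was 249 without replicate 2 of 30 min and 990 without replicate 1 of 120 min, and 203 genes, 80 of them higher at 120 min, were called in every one of the 11 fits that left out 1 library.

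The immediate-early transcription factors that were called had all fallen by 120 min. Of 27 tested, 6 were called lower (Egr2, Atf3, Fos, Junb, Klf10 and Ier2) and 0 higher, and 21 of the 27 had a lower fitted level. The median log2 fold change was -0.26, against -0.00 over all genes tested. The share called lower was 22.2%, beside 2.48% over all genes. This list and those below were chosen with earlier results of these data known, so their shares only describe these data. Without the libraries that had the highest choroid plexus sum and the highest striatal sum, 2 of the 27 were called, Egr2 and Klf10, and in the 11 fits without 1 library 3 to 5 were. Over 22 alternatives other than a block on replicate number, 1 to 10 were called lower, the 1 at an adjusted p under 0.01 and the 10 in a fit of the 2 groups alone. With that block 13 were called lower.

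Fos (ENSMUSG00000021250) encodes the partner of Jun proteins in AP-1, the factor most used as a mark of recently active neurons. At 30 min the 5 libraries held 66.9, 46.4, 53.5, 59.2 and 52.4 CPM, and at 120 min the 6 libraries ran from 20.7 to 35.0 CPM with a median of 30.0. Every library of 120 min lay below every library of 30 min. This is a log2 fold change of -0.93 ± 0.22 (SE, edgeR adjusted p 0.0148), and the adjusted p was 0.0656 without the libraries with the highest choroid plexus and striatal sums. At 60 min the controls averaged 51.5 ± 5.46 CPM (SD, n = 5), close to the 55.7 ± 7.78 CPM (SD, n = 5) of 30 min and above the 29.2 ± 6.06 CPM (SD, n = 6) of 120 min.

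Egr2 (ENSMUSG00000037868), a zinc finger factor induced by growth factors and synaptic activity, fell the most of the list. Its libraries held 26.0, 17.3, 22.2, 26.0 and 18.8 CPM at 30 min, and 5.70 to 11.3 CPM with a median of 9.11 at 120 min. Again the groups did not overlap. The log2 fold change was -1.34 ± 0.28 (edgeR adjusted p 0.00725), and the call held in all 11 fits without 1 library. Its relatives in the family did not pass: Egr1 had a log2 fold change of -0.26 (adjusted p 0.246), Egr3 of -0.00 (adjusted p 0.993) and Egr4 of -0.38 (adjusted p 0.118), by edgeR.

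Junb (ENSMUSG00000052837), a partner of Fos, held 108, 77.2, 86.4, 89.8 and 81.1 CPM at 30 min and 42.6 to 65.2 CPM, median 56.3, at 120 min. All 6 later libraries lay below the earlier ones, at a log2 fold change of -0.69 ± 0.20 (edgeR adjusted p 0.0416). Jun itself did not move with it, at a log2 fold change of 0.01 (adjusted p 0.966, edgeR). Atf3, a stress-induced factor, was rare, at 2.02, 1.22, 0.999, 1.07 and 0.986 CPM at 30 min and 0.415 to 0.704 CPM, median 0.556, at 120 min, with a log2 fold change of -1.15 ± 0.31 (edgeR adjusted p 0.0327). Replicate 1 of 30 min stood above the other 10 libraries for Atf3, and without it the adjusted p was 0.112. Klf10, a factor induced by TGF-beta, fell from 48.5 to 55.8 CPM to 27.5 to 43.8 CPM (log2 fold change -0.60 ± 0.14, edgeR adjusted p 0.0142), and Ier2 fell from 9.51 to 12.1 CPM to 5.96 to 7.88 CPM (log2 fold change -0.54 ± 0.16, edgeR adjusted p 0.0494), both without overlap. When 1 library was left out, Egr2, Fos and Klf10 kept their calls in all 11 fits, Atf3 lost its call in 5, Junb in 10 and Ier2 in 11. The highest adjusted p of Junb in those fits was 0.11 and that of Ier2 0.121, both without replicate 1 of 30 min.

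Among 24 activity-induced genes that encode effectors rather than factors, 2 were called lower and 0 higher, a share of 8.33% beside 2.48% over all genes, and the median log2 fold change was -0.13. Over the same 22 alternatives 1 to 6 were called lower. Ccn1, a secreted matrix protein, held 11.9, 7.99, 8.34, 9.42 and 6.98 CPM at 30 min and 3.35 to 5.39 CPM, median 4.10, at 120 min. The groups did not overlap, and the log2 fold change was -1.05 ± 0.22 (edgeR adjusted p 0.00774), called in all 11 fits without 1 library. Sik1, a kinase that restrains CREB signalling, held 29.8, 21.3, 23.5, 21.0 and 19.7 CPM and then 7.96 to 18.3 CPM, median 12.8, again without overlap. Its log2 fold change was -0.81 ± 0.22 (edgeR adjusted p 0.0348) and its call was lost in 6 of the 11 fits, up to an adjusted p of 0.0989 without replicate 1 of 30 min. Arc, whose protein acts at synapses, was at 413 to 570 CPM at 30 min and 198 to 428 CPM at 120 min, which overlap, with a log2 fold change of -0.69 that missed the threshold (edgeR adjusted p 0.0881). Bdnf, a neurotrophin, was at -0.12 (adjusted p 0.545) and Homer1, a synaptic scaffold, at -0.16 (adjusted p 0.535). Of 16 inhibitors of kinase and inflammatory signalling 0 were called by edgeR. All 16 had a fitted value below 0, with a median of -0.12, and Dusp1, a phosphatase of MAP kinases, came closest at -0.53 (adjusted p 0.086).

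**Figure D1:**
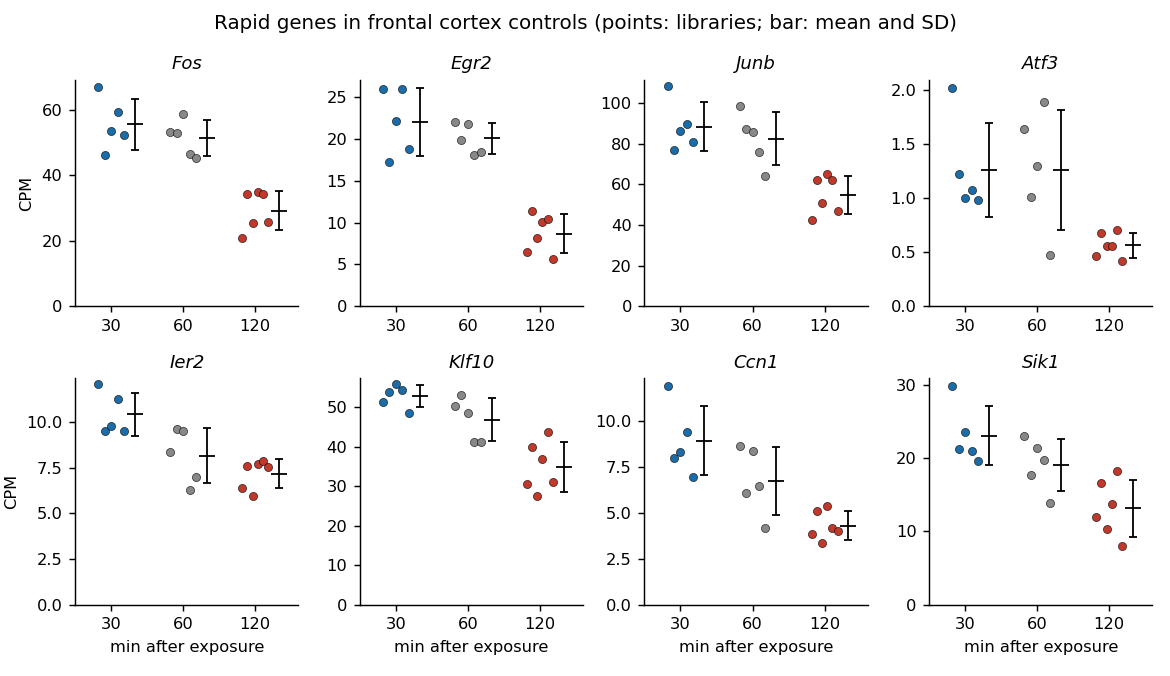
Levels in CPM (vertical axes, from 0) of 8 rapid genes in each control library of frontal cortex at 30, 60 and 120 min (horizontal axes), with the mean and SD of each group as a bar. In all 8 genes the 6 libraries of 120 min lie below the 5 libraries of 30 min, and the 60 min libraries of Fos, Egr2 and Junb lie near those of 30 min.

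Promoters are shown for Egr2 and Fos, which fell, and for Mt1, which rose, because these windows carry or lack the elements through which serum response factor and the glucocorticoid receptor act. Each sequence runs from 250 bases before the transcript start to 50 after it, as RefSeq gives it on GRCm38.p6, and capitals mark a CArG box in Egr2 and a GNACANNNTGTNC match, the palindrome of the glucocorticoid receptor, in Mt1.
Egr2, chr10:67537620-67537919, plus strand: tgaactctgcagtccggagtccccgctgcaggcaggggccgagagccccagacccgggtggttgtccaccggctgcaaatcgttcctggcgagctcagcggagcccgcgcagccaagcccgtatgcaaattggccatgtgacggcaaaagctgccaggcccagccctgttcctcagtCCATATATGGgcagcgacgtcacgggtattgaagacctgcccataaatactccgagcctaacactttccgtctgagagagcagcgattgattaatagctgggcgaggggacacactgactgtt
Fos, chr12:85473640-85473939, plus strand: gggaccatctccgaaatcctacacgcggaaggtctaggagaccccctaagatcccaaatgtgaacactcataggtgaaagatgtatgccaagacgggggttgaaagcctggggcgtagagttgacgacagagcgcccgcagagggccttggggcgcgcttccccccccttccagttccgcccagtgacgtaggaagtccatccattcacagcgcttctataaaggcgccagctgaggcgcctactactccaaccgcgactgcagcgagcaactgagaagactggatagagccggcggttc
Mt1, chr8:94178839-94179138, plus strand: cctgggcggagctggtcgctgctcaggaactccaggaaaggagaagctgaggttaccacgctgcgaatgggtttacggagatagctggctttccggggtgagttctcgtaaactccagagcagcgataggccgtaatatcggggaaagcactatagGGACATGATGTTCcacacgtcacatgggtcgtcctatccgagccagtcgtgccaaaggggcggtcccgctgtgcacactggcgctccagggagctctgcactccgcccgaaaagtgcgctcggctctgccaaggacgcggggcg
Both strands were searched. The CArG box was found in 1.63% of all 32851 promoters in the table and GNACANNNTGTNC in 0.475%, while TGACGTCA, the full cyclic AMP element, was in 1.79%. Of the 6 called rapid factors, 4 had promoters in the table, with 8 windows in all, and the CArG box occurred in those of Egr2 alone, in 4 of its 5 windows, some of which overlap. All 5 called glucocorticoid targets had 1 promoter each, and of these Mt1 alone held GNACANNNTGTNC. Over the whole list of 19 such genes, 2 of 28 windows held it (7.14%), in Mt1 and Sgk1, and Sgk1 was not called. A match describes the letters of these windows, and its absence covers only this stretch.

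Of 19 genes that corticosterone induces, 5 were called higher at 120 min (Plin4, Hif3a, Fkbp5, Arrdc2 and Mt1) and 0 lower. The median log2 fold change was 0.24, and the share called higher was 26.3% beside 1.94% over all genes. The count was 5 also without the libraries with the highest choroid plexus and striatal sums, with Plin4, Hif3a, Fkbp5 and Arrdc2 among them and Mt1 not (adjusted p 0.0663). It ran from 2 to 6 in the 11 fits without 1 library, and was 2 without replicate 5 of 30 min, where Plin4, Hif3a and Mt1 lost their calls. Over 22 alternatives it was 1 to 9, at the same 2 extremes as for the rapid factors, and with the block on replicate number it was 10. Not every member moved: Sgk1, a kinase, had a log2 fold change of 0.03 (adjusted p 0.939), Tsc22d3 of 0.20 (adjusted p 0.304) and Per1, which is also an immediate-early and a clock gene, of -0.31 (adjusted p 0.198), by edgeR.

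Plin4, a coat protein of lipid droplets, had the largest log2 fold change of all genes called higher. It held 10.1, 5.96, 8.79, 2.71 and 2.64 CPM at 30 min and 14.4 to 21.6 CPM, median 15.96, at 120 min. The groups did not overlap, although the 30 min libraries spread widely among themselves. The log2 fold change was 1.51 ± 0.36 (edgeR adjusted p 0.0155), and without replicate 5 of 30 min the adjusted p was 0.0511.

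Fkbp5 (a chaperone that dampens the glucocorticoid receptor) held 43.3, 32.6, 38.9, 27.05 and 26.0 CPM at 30 min and 45.2 to 67.4 CPM, median 59.6, at 120 min. Each later library lay above each earlier one, and the log2 fold change was 0.82 ± 0.16 (edgeR adjusted p 0.00405), with the call kept in all 11 fits without 1 library. At 60 min Fkbp5 averaged 38.9 CPM, between the times. Hif3a, a hypoxia-inducible factor that steroids also induce, held 11.8, 8.05, 6.62, 4.56 and 3.46 CPM and then 10.9 to 13.9 CPM, median 12.9. Only replicate 1 of 30 min reached into the range of 120 min, and the log2 fold change was 0.87 ± 0.22 (edgeR adjusted p 0.0237), lost in 4 of the 11 fits up to 0.0753 without replicate 5 of 30 min. Arrdc2, an arrestin-domain protein, ran from 9.23 to 13.5 CPM at 30 min and from 11.6 to 19.8 CPM at 120 min, overlapping, with a log2 fold change of 0.58 ± 0.13 (edgeR adjusted p 0.0104). Mt1, a metallothionein, ran from 101 to 122 CPM and from 124 to 148 CPM, a smaller log2 fold change of 0.25 ± 0.07 that passed narrowly (edgeR adjusted p 0.0498) and was lost in 8 of the 11 fits.

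Other genes with the largest rises or the smallest p at 120 min were spread over functions. Map3k6, a stress kinase, rose without overlap from 4.94, 4.05, 3.92, 3.28 and 2.62 CPM to 5.22 to 7.92 CPM, median 7.12, with a log2 fold change of 0.87 ± 0.16 (edgeR adjusted p 0.00273). Mrtfa, a coactivator of serum response factor, had the smallest p of the genes that rose: it held 59.2, 54.4, 51.1, 52.9 and 44.6 CPM at 30 min and 62.8 to 68.8 CPM, median 68.2, at 120 min. Its log2 fold change was 0.36 ± 0.06 (edgeR adjusted p 0.000829), without overlap. Bcl2l1, which protects mitochondria against apoptosis, went from 83.1 to 89.8 CPM to 98.4 to 115 CPM, a log2 fold change of 0.27 ± 0.04 (edgeR adjusted p 0.000829). Nrros, a microglial protein that anchors latent TGF-beta, went from 5.07 to 7.02 CPM to 7.75 to 12.4 CPM (log2 fold change 0.68 ± 0.11, edgeR adjusted p 0.00148). Klf13, a zinc finger factor, went from 170 to 191 CPM to 201 to 231 CPM (log2 fold change 0.28 ± 0.05, edgeR adjusted p 0.00224). All 3 were without overlap and kept their calls in the 11 fits without 1 library. Crym, a cytosolic protein that binds thyroid hormone, reached 36.5 to 58.4 CPM from 23.6 to 29.0 CPM (log2 fold change 0.88 ± 0.18, edgeR adjusted p 0.00465), and its 60 min mean of 62.0 CPM was higher than either. Mc4r, the melanocortin receptor, was near 1 CPM at 30 min (0.773 to 1.49 CPM) and at 1.73 to 2.62 CPM at 120 min (log2 fold change 0.98 ± 0.22, edgeR adjusted p 0.0103). The remaining genes named by the same rule were Ehd1, an endocytic ATPase (log2 fold change 0.19), Clptm1, a membrane protein that controls GABA-A receptor traffic (0.17), Mlph, a melanosome adaptor (0.86), Tekt4, a protein of cilia (1.07), and Rps16-ps2 (0.77), a pseudogene whose reads cannot be told from those of its parent with certainty.

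**Figure D2:**
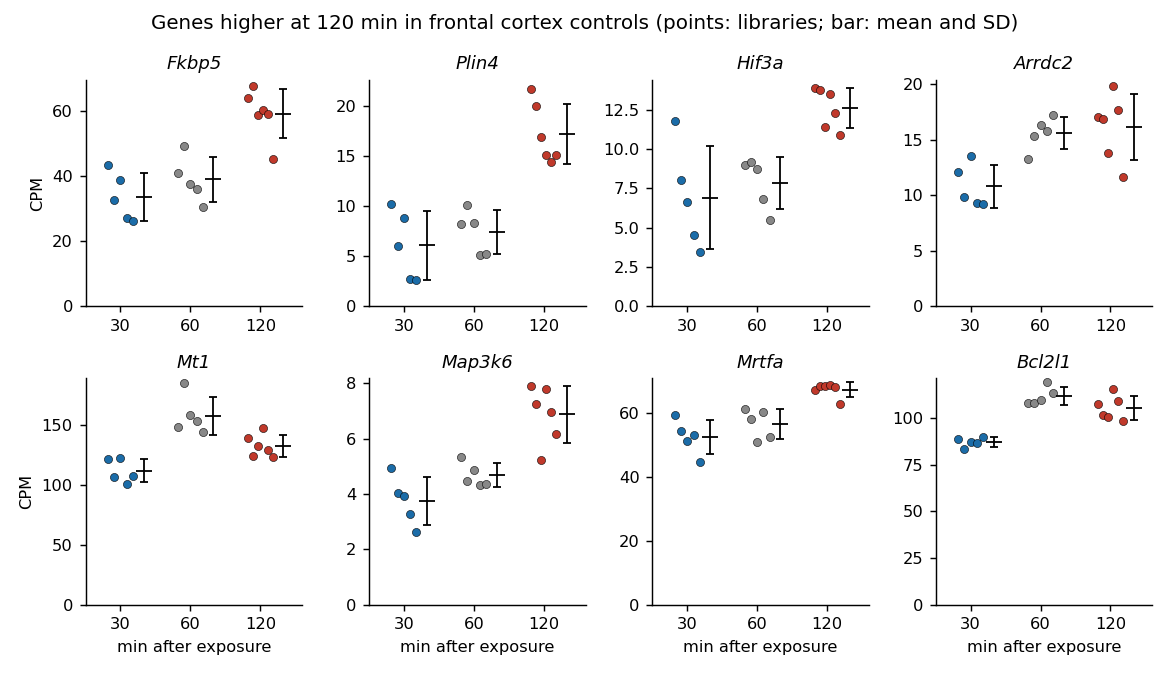
Levels in CPM (vertical axes, from 0) of 5 glucocorticoid targets and 3 other genes called higher at 120 min, in each control library of frontal cortex at 30, 60 and 120 min, with the mean and SD of each group as a bar. Hif3a and Arrdc2 are the 2 genes of the 8 whose 30 and 120 min libraries overlap.

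Genes of the vessel wall were among those lowered. Of 12 endothelial markers, 3 were called lower (Kdr, Tek and Slco1a4) and 1 higher (Slc2a1), shares of 25.0% and 8.33% beside 2.48% and 1.94% over all genes, and the median log2 fold change was -0.19. Without 1 library, 2 to 5 of them were called lower. Of 10 mural markers, 1 was called lower (Rgs5), or 10% beside the same 2.48%, all 10 had values below 0 and the median was -0.26. Of 8 meningeal fibroblast markers, 2 were called lower (Dcn and Lum), or 25.0%, all 8 had values below 0 and the median was -0.24, and 0 were called without the libraries with the highest choroid plexus and striatal sums. Without 1 library 0 to 2 were called, with Dcn lost in 10 of the 11 fits and Lum in 6. Cldn5, Cdh5 and Pecam1, which define endothelial cells, were not called, at -0.29, -0.18 and -0.16. Summed over the 12 genes, endothelial markers held 489 to 550 CPM at 30 min, inside the 455 to 560 CPM of 120 min. Mural sums were 239 to 283 CPM and then 198 to 242 CPM, and meningeal sums 121 to 150 CPM and then 87.2 to 130 CPM, and the part of these in the results was not tested. In bulk tissue, fewer cells of a type and less of a transcript per cell cannot be told apart.

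Kdr, the main VEGF receptor of endothelium, held 12.9, 13.6, 11.4, 14.3 and 14.5 CPM at 30 min and 6.56 to 8.27 CPM, median 7.73, at 120 min. There was a wide gap between the groups, with a log2 fold change of -0.82 ± 0.11 (edgeR adjusted p 7.44e-05). Fli1, an ETS factor of endothelial cells and microglia, had the smallest p of all genes: 4.91, 5.40, 4.60, 4.45 and 5.03 CPM at 30 min against 2.40 to 3.26 CPM, median 3.04, at 120 min. Its log2 fold change was -0.74 ± 0.08 (edgeR adjusted p 2.83e-06), again without overlap. Tek, the angiopoietin receptor, ran from 13.1 to 17.4 CPM and then from 10.04 to 14.2 CPM, with overlap (log2 fold change -0.42 ± 0.11, edgeR adjusted p 0.0229), and its call was lost in 6 of the 11 fits, up to 0.0689 without replicate 5 of 30 min. Slco1a4, an organic anion carrier of the blood-brain barrier, ran from 65.4 to 73.6 CPM and then from 44.0 to 63.6 CPM without overlap (log2 fold change -0.41 ± 0.08, edgeR adjusted p 0.00387). Apold1, an endothelial immediate-early gene, held 13.2, 8.61, 7.70, 8.12 and 7.40 CPM and then 2.96 to 5.24 CPM, median 4.58 (log2 fold change -1.04 ± 0.20, edgeR adjusted p 0.00326). Lef1, a Wnt-responsive factor that sits in the thalamic marker list and is also made by brain endothelium, was lower at -0.56 ± 0.09 (edgeR adjusted p 0.000829). Slc2a1, the glucose carrier of the barrier, went the other way, from 85.5 to 132 CPM to 108 to 162 CPM (log2 fold change 0.50 ± 0.11, edgeR adjusted p 0.011). Rgs5, a pericyte regulator of G proteins, ran from 117 to 136 CPM and then from 92.0 to 115 CPM (log2 fold change -0.32 ± 0.08, edgeR adjusted p 0.019), lost in 2 of the 11 fits.

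The other lowered genes with the smallest p or largest fall included a death ligand, transporters and a matrix enzyme. Tnfsf10, which encodes the ligand TRAIL, held 2.31, 2.77, 2.604, 3.43 and 3.08 CPM at 30 min and 0.958 to 1.66 CPM, median 1.28, at 120 min. The 2 groups lay apart, at a log2 fold change of -1.18 ± 0.16 (edgeR adjusted p 7.44e-05). Phldb2, a cortical anchor of microtubules, held 11.6, 11.9, 11.4, 10.8 and 9.33 CPM and then 5.86 to 7.21 CPM, median 6.22 (log2 fold change -0.78 ± 0.09, edgeR adjusted p 9.05e-06). P3h3, a collagen-modifying enzyme, held 26.7, 28.6, 25.9, 28.0 and 31.7 CPM and then 15.3 to 20.3 CPM, median 17.6, without overlap (log2 fold change -0.67 ± 0.09, edgeR adjusted p 5.37e-05). Slc16a1, a lactate carrier of endothelium and glia, fell from 31.4 to 35.8 CPM to 23.6 to 27.5 CPM (log2 fold change -0.43 ± 0.06, edgeR adjusted p 6.64e-05). Slc20a1, a phosphate carrier, fell from 177 to 188 CPM to 147 to 159 CPM (log2 fold change -0.28 ± 0.04, edgeR adjusted p 6.64e-05). Donson, a replication factor, was lower by a log2 fold change of -0.34, and Depp1, a target of FOXO factors, had -1.38, from 0.881 to 2.27 CPM and then 0.259 to 1.23 CPM, with overlap. Fli1, Kdr, Tnfsf10, Phldb2, P3h3, Slc16a1, Slc20a1, Donson, Depp1 and Apold1 kept their calls in all 11 fits without 1 library.

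**Figure D3:**
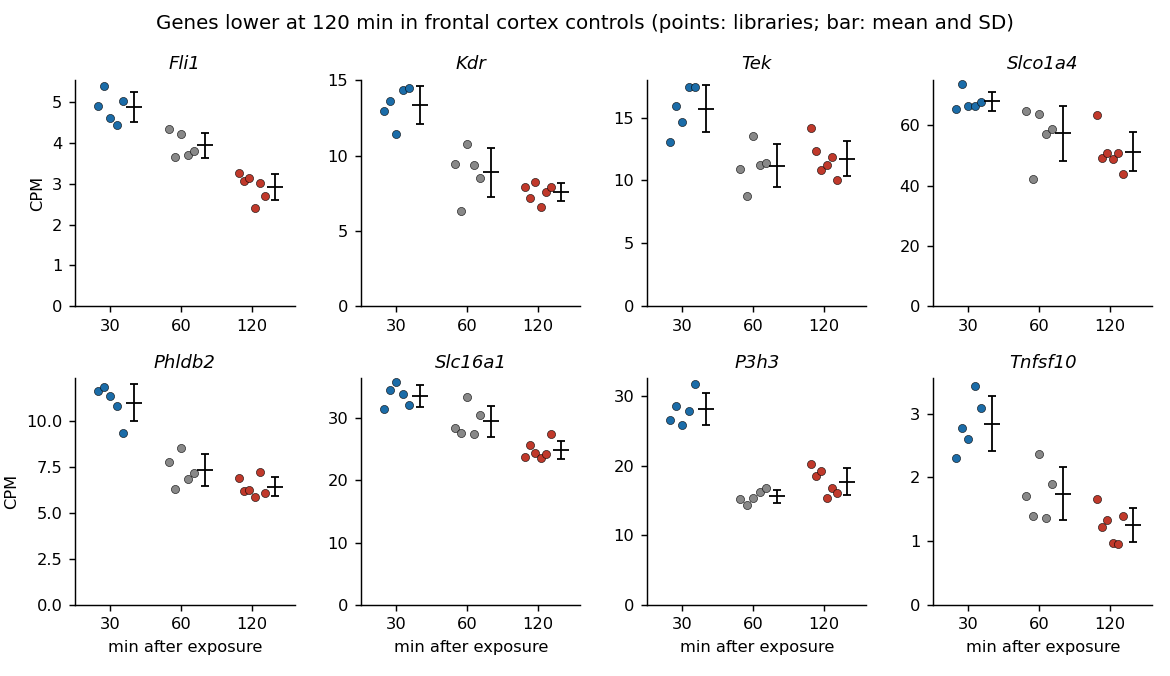
Levels in CPM (vertical axes, from 0) of 8 genes called lower at 120 min, in each control library of frontal cortex at 30, 60 and 120 min, with the mean and SD of each group as a bar. Tek is the one gene of the 8 whose 30 and 120 min libraries overlap.

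In most other lists few members were called. Of 21 clock genes, 1 was called, Cry2, lower by a log2 fold change of -0.16, a share of 4.76% beside 2.48% over all genes, and 19 had values below 0 with a median of -0.16, and without the same pair of libraries 0 were called by edgeR. Cry2 was lost in 8 of the 11 fits without 1 library. Over 22 alternatives 0 to 6 clock genes were called lower, the 6 in the fit of the 2 groups alone, which also called 3 heat-shock genes lower. With a block on replicate number, 10 clock genes were called lower and 1 higher. Heat-shock genes gave 0 calls of 14 by edgeR, chaperones of the endoplasmic reticulum 0 of 16, GABA-A subunits 0 of 16 and potassium channel subunits 0 of 37. Of the cold-inducible RNA-binding proteins, Rbm3 was called lower at -0.24 (edgeR adjusted p 0.0337), lost in 7 of the 11 fits without 1 library, and Cirbp had a value of 0.01. Nuclear genes of oxidative phosphorylation had 3 of 77 called higher (Ndufa7, Sdha and Uqcrc1), a share of 3.9% beside 1.94% over all genes, and a median of 0.08. Without 1 library 1 to 5 of them were called, and Uqcrc1 was lost in 8 of the 11 fits. Ribosomal protein genes had 2 of 82 called higher (Rpl7a and Rps6), a share of 2.44% near the background, and a median of 0.05. Without 1 library 0 to 3 were called, with Rpl7a lost in 9 of the 11 fits and Rps6 in 4. The 12 mitochondrially encoded genes gave 0 calls. Of 18 glutamate receptor subunits Grid1 was called, at 0.18, and of 18 cholesterol genes Fdft1, at 0.25, each a share of 5.56% beside 1.94% over all genes, and Grid1 was lost in 8 of the 11 fits without 1 library (adjusted p up to 0.119). Of all genes tested, 3446 had an unadjusted p under 0.05 by edgeR.

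Markers of other cell types also differed between the groups. All 12 oligodendrocyte markers had values above 0 (median log2 fold change 0.39), with Mbp and Cldn11 called higher, a share of 16.7% beside 1.94% over all genes, and their sum was 3115 to 3999 CPM at 30 min and 3777 to 5960 CPM at 120 min. Without the libraries with the highest choroid plexus and striatal sums, 0 of these 12 were called by edgeR, and without 1 library 0 to 4 were, while the fit of the 2 groups alone called 9. In intruder-exposed cortex 11 of the 12 were called higher over the same interval, beside 9.02% of all genes there, with a median of 0.60. All 10 striatal markers had values above 0 (median 0.84) with 0 called by edgeR. None was called in the 22 alternatives without a block on replicate number, and 9 were with that block. Excitatory neuron markers lay between -0.07 and 0.10 with 0 of 7 called by edgeR. Of 15 layer markers Rasgrf2 was lower (-0.32), while 8 of the 15 lay above 0 with a median of 0.11. Of 12 interneuron markers Sst and Lhx6 were higher (0.29 and 0.26), while 7 of the 12 lay below 0 with a median of -0.03. Rasgrf2 lost its call in 5, Sst in 4 and Lhx6 in 3 of the 11 fits without 1 library. Of 10 astrocyte markers S1pr1 was lower (-0.63) and of 6 precursor markers Olig1 was higher (0.34). The shares called were 6.67% of layer, 16.7% of interneuron, 10% of astrocyte and 16.7% of precursor markers, each resting on 1 or 2 genes, beside 2.48% lower and 1.94% higher over all genes.

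**Figure D4:**
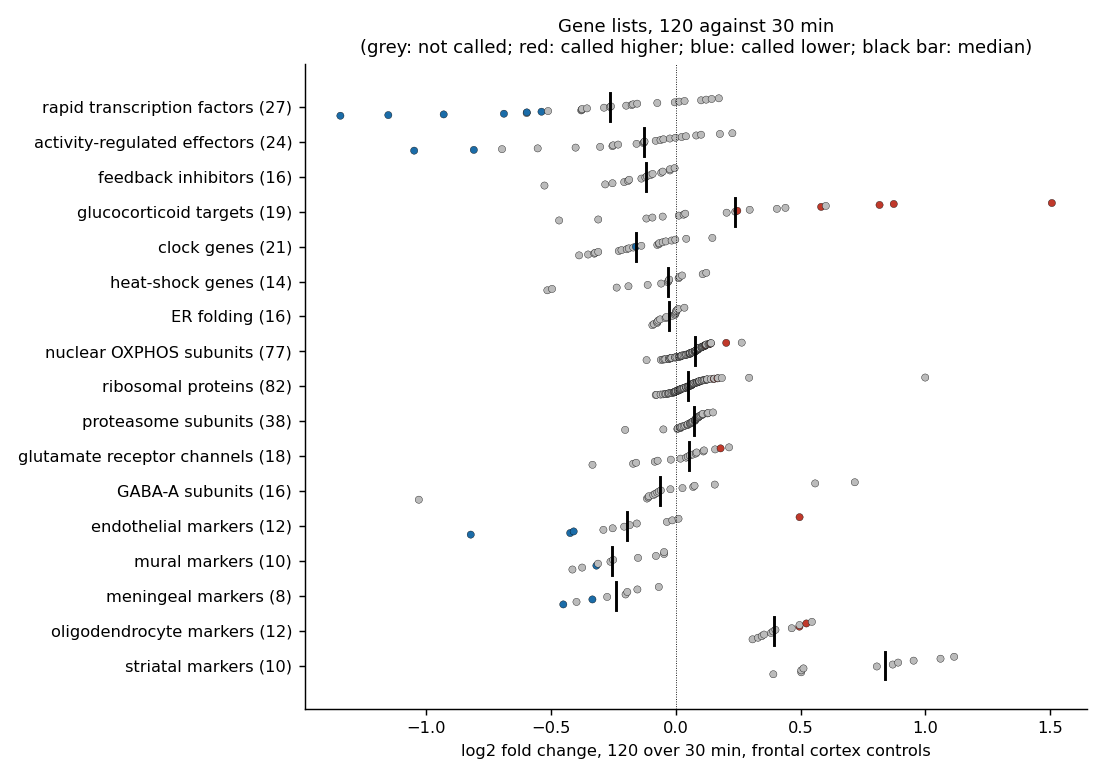
Log2 fold change from 30 to 120 min in frontal cortex controls (horizontal axis) of every tested member of 17 gene lists (rows, number tested in brackets), with calls coloured and the list median as a black bar. Calls lie to the left of 0 among rapid factors, to the right among glucocorticoid targets, and on both sides among endothelial markers, where Slc2a1 is the one to the right.

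The controls of 60 min show where the called genes stood between the times. Of the 755 genes, 304 had a 60 min mean between those of 30 and 120 min, 442 had one beyond the 120 min mean, and 9 had one on the far side of the 30 min mean. Over all 17091 genes these counts were 3392, 9696 and 4003. The 755 genes were called against the same 30 min libraries, so a 60 min mean on the 120 min side is partly built in. The counts of called and of all genes are therefore not compared. P3h3 (15.6 CPM at 60 min), Bcl2l1 (112 CPM) and Rbm25 (81.9 CPM) belong to those that had gone further at 60 min than at 120 min, while Fos, Egr2, Kdr, Fli1, Fkbp5 and Plin4 lay between. From 30 to 60 min, 593 of the 755 genes were already called in the same direction, beside 5662 of all 17091. The 60 min libraries carry the CERV tag and other indices, so the same limits hold for them. A step between 30 min and both later times cannot be told apart from the change of the header tag.

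Whether the intruder changed this course was tested as the difference between the 2 changes with time. In intruder-exposed frontal cortex, 3021 of the 17091 genes were called between 30 and 120 min (17.7%). The difference of the changes was called by edgeR for 0 genes (0%). Its smallest adjusted p was 0.137, 1025 genes had an unadjusted p under 0.05, DESeq2 called 3 genes and limma voom called 0. Of the genes called in controls, 511 were also called after the intruder, which is 67.7% of the 755 and 16.9% of the 3021. The 2 comparisons share no library, but both set the ISO tag against the CERV tag. Fos had log2 fold changes of -0.93 ± 0.22 in controls and -0.88 ± 0.22 after the intruder, Kdr -0.82 ± 0.11 and -0.80 ± 0.11, and Fkbp5 0.82 ± 0.16 and 0.45 ± 0.16. Of 27 rapid factors 6 were called lower in each set, and 1 higher after the intruder. Chaperones of the endoplasmic reticulum had 0 of 16 called higher in controls and 16 after the intruder (medians -0.03 and 0.32). Heat-shock genes had 0 and 8 of 14, and nuclear oxidative phosphorylation genes 3 and 39 of 77. Over all genes 2.48% and 8.66% were called lower, and 1.94% and 9.02% higher. A p that misses the threshold does not show that the changes were equal.

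Over the same interval in the other regions of control animals, 25 of 17277 genes were called in amygdala (0.145%), with 5 libraries at each time, and 31 of 17676 in hypothalamus (0.175%), with 3 libraries at 30 min and 5 at 120 min. Frontal cortex has 5 libraries at 30 min and 6 at 120 min, and it gave 249 to 990 calls with 1 of these left out. Why the counts differ between regions was not tested. Of the 755 genes of frontal cortex, 13 were among the 25 of amygdala and 12 among the 31 of hypothalamus. Rbm25 went the opposite way in both regions and Ptbp3, named here after its values were seen, in hypothalamus (-0.32 in cortex, 0.32 there). Fos, Junb, Sik1 and 1700016P03Rik, a noncoding transcript named here after its values were seen, were called lower in all 3 regions, and Hif3a was called higher in all 3. Fos had log2 fold changes of -1.28 in amygdala and -1.74 in hypothalamus, beside -0.93 in frontal cortex. Egr2, Ccn1, Apold1 and Ier2 were called lower in amygdala as well, at -1.17, -0.80, -0.95 and -0.45. Taking the frontal cortex calls as a whole, genes called higher there had medians of 0.04 in amygdala and -0.04 in hypothalamus, and genes called lower -0.06 and 0.05.

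The change of controls differed between frontal cortex and amygdala for 68 of 17107 genes (0.397%), 62 of them with the more negative value in cortex, and between frontal cortex and hypothalamus for 583 of 17668 genes (3.3%). Libraries of frontal cortex and another region with the same time and replicate number were taken as the same animal. This gave 10 animals shared with amygdala and 8 with hypothalamus. With the animal as a block the counts were 14 and 6.

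Rbm25, a splicing factor, had the smallest p against amygdala. In frontal cortex it held 125, 130, 126, 129 and 133 CPM at 30 min and 88.9 to 104 CPM, median 95.1, at 120 min, without overlap. Its log2 fold change of -0.43 in cortex stood against 0.54 in amygdala and 0.55 in hypothalamus, each of the 3 called. The difference was -0.97 ± 0.10 from amygdala (edgeR adjusted p 2.16e-05, 0.00095 with the animal as a block) and -0.97 ± 0.12 from hypothalamus (edgeR adjusted p 0.000729, 0.0454 with the block). P3h3, at -0.67 in cortex, was at 0.02 in amygdala and 0.05 in hypothalamus, with edgeR adjusted p-values of the difference of 0.0322 and 0.00661, and of 0.0111 and 0.0289 with the block. The difference of P3h3 from amygdala was called in 18 of 29 alternatives, with an adjusted p of up to 0.0762, and that from hypothalamus in 27 of 27. Sestd1, a phosphoinositide-binding protein, was at -0.23 in cortex and 0.23 in amygdala (adjusted p of the difference 0.000674 by edgeR, 0.0951 after correction for GC content and length). Ogdhl, a mitochondrial dehydrogenase of brain, was at 0.03 in cortex and -0.53 in hypothalamus (edgeR adjusted p of the difference 0.00013). Fos fell less in cortex than in hypothalamus, by a difference of 0.82 ± 0.21 (edgeR adjusted p 0.038, 0.0804 with the block).

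Length and base composition moved with these differences. The longest transcript had a median of 4.42 kb in genes called lower in frontal cortex, 3.00 kb in genes called higher and 3.24 kb over all genes tested. Their median GC contents were 46.0%, 54.4% and 49.8%. Genes with a more negative change in cortex than in amygdala had a median length of 9.06 kb. Across 16395 genes, which are not independent replicates, the rank correlation of the log2 fold change with GC content was 0.28 in frontal cortex, -0.06 in amygdala and -0.34 in hypothalamus. After a per-library correction for GC content and length, 705 genes were called in frontal cortex, of which 466 were among the 755, while the counts of the region differences were 21 for amygdala and 85 for hypothalamus. The 6 rapid factors stayed called after it and 4 of the 5 glucocorticoid targets did, as did Kdr, Fli1, P3h3 and Rbm25, while 8 named genes lost their call by edgeR: Mt1 (adjusted p 0.0771), Sestd1 (0.223), Rgs5 (0.0783), Dcn (0.159), Cldn11 (0.0592), Rbm3 (0.0586), Lhx6 (0.107) and Uqcrc1 (0.0905).

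**Figure D5:**
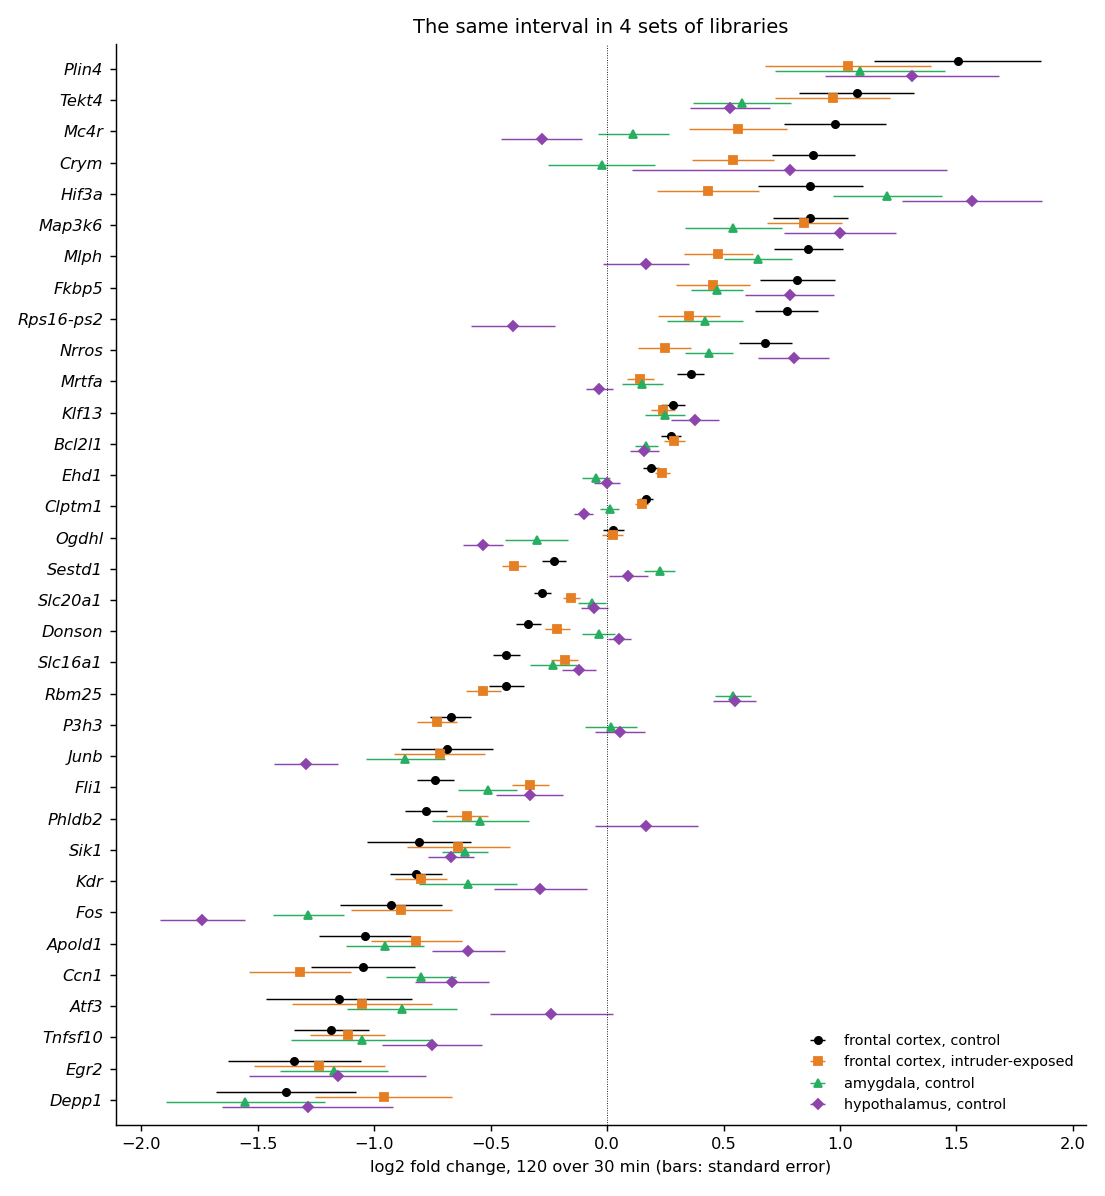
Log2 fold change from 30 to 120 min (horizontal axis, bars are standard errors) of named genes (rows) in frontal cortex controls, intruder-exposed frontal cortex, amygdala controls and hypothalamus controls. Fos, Sik1, Junb and Hif3a lie on the same side of 0 in all 4, while Rbm25 lies below 0 in both sets of frontal cortex and above 0 in the other regions.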

How the data were processed

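Poly(A) RNA was measured as reads per gene. Per the submitters' processing notes, CASAVA 1.8.2, TopHat2 2.0.8, HTSeq 0.6.1, edgeR 3.2.4 and R 3.0.0 and the build NCBIM37 were used. The deposited table holds raw counts of reads for 37991 Ensembl identifiers in 90 libraries. The 5 rows of unassigned reads were left out of depth, except for the read shares. Frontal cortex was fitted with all 32 of its libraries in 6 groups (R 4.3.3, edgeR 4.0.16): filterByExpr, TMM scaling, quasi-likelihood F test, Benjamini-Hochberg adjusted p below 0.05 over all genes. Labels name 1 animal per library, and p-values measure the spread between these samples. Differences between regions were fitted on the control libraries of both. Read shares were compared by two-sided exact permutation over 462 groupings. CPM use TMM-scaled library sizes. Alternatives included DESeq2 1.42.0 and limma 3.58.1. Named genes are, among called genes with a proper symbol, the 8 per direction with the smallest p, the 6 per direction with the largest change at a mean of at least 1 CPM, up to 2 per difference between conditions or regions, and list members. Members and lists were chosen with earlier results of these data known. Symbols come from Gencode M21 (32919 identifiers), length and GC content from its transcripts and promoters from RefSeq; older symbols were matched through RefSeq synonyms. Lists share a few genes.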

Additional observations from a re-analysis of the deposited data

Results flagged for a closer look

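A library stood apart from the others of its group, by the gap of its value to the nearest other set against the group's range, in 17 of the 168 groups of libraries looked at, where chance gives about 1 in 20, or 8.4. Among genes, replicate 1 of 30 min was high for Atf3 at 2.02 CPM (the others 0.986 to 1.22) and for Apold1 at 13.2 CPM (7.40 to 8.61). Replicate 2 of 30 min was high for Donson at 22.9 CPM (19.2 to 20.2) and Slco1a4 at 73.6 CPM (65.4 to 67.8), and low for Grid1 at 50.4 CPM. Replicate 3 of 30 min was high for the oligodendrocyte gene Cldn11 at 112 CPM (79.6 to 88.1). At 120 min, replicate 1 was high for Donson at 18.6 CPM (14.6 to 16.1) and Slco1a4 at 63.6 CPM (44.0 to 51.0), replicate 3 for Lhx6 at 25.4 CPM and replicate 4 for Fdft1 at 103 CPM (88.2 to 92.5), while replicate 6 was low for Mrtfa at 62.8 CPM (67.1 to 68.8). Among summed markers and read shares, replicate 3 of 120 min was high for blood at 145 CPM. Replicate 4 of 120 min was high for choroid plexus at 33.7 CPM, excitatory neurons at 7793 CPM and ambiguous reads at 0.719%. Replicate 4 of 30 min was high for interneurons at 1345 CPM, and replicate 1 of 120 min had the fewest gene reads, 38.6 M.

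The change from 30 to 120 min differed between frontal cortex and another region of control animals, by edgeR's test of the difference, for genes named here as follows. Against amygdala, the cortical log2 change minus that of amygdala was -0.97 for Rbm25, -0.46 for Sestd1, -0.69 for P3h3, -0.62 for Rasgrf2 and -0.70 for S1pr1, with adjusted p-values from 2.16e-05 to 0.0322, and all 5 stayed called with the animal as a block, while P3h3 was called in 18 of 29 alternatives. Against hypothalamus the difference was negative for Rbm25 (-0.97), Phldb2 (-0.94), P3h3 (-0.72), Rasgrf2 (-0.56), S1pr1 (-0.53), Donson (-0.38), Rgs5 (-0.36) and Slc16a1 (-0.30). It was positive for Mc4r (1.27), Rps16-ps2 (1.18), Fos (0.82), Ogdhl (0.57), Ndufa7 (0.41), Mrtfa (0.40), Fdft1 (0.34), Clptm1 (0.27), Rpl7a (0.26) and Grid1 (0.25). These adjusted p-values ran from 0.00013 to 0.0465 without regard to the animals that both regions are taken to share. With the animal as a block, Rbm25, Ogdhl and P3h3 of these 18 genes stayed called, and the adjusted p-values of the other 15 ran from 0.0538 to 0.144. Fos fell in both regions, and its positive difference means a smaller fall in cortex.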

How the results depend on the processing

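The 755 genes called in controls became 154 at an adjusted p under 0.01, 1142 with DESeq2, 441 with no filter on low counts and 1383 with the 2 groups alone, and the cause was not tested. With the replicate number as a block the count was 2000, and the lists gave 13 rapid factors, 10 clock genes, 6 endothelial, 3 meningeal and 2 mural markers, 5 activity effectors, 2 feedback inhibitors, 2 heat-shock genes and 2 choroid plexus markers called lower. It also gave 2 activity effectors, 1 clock gene, 1 endothelial marker, 10 glucocorticoid targets, 11 oligodendrocyte, 9 striatal, 10 oxidative phosphorylation and 7 ribosomal genes called higher, and 0 ER folding and 0 proteasome genes called. Same-numbered libraries correlated at 0.13 to 0.30 in 4 of 5 pairs, each best with its own number, which is a hint of pairing from the data, but at 0.04 in replicate 3. The plan left the replicate number out because animals of different times are different animals. The labels name no litter, batch or day behind the numbers. The fit without the block was kept, and whether the numbers mark pairs is not settled. Other scalings, limma voom, a 1 CPM filter, the controls alone and the GC and length correction gave 680 to 1014. The intruder-exposed count was 1145 at 0.01, and DESeq2 called 3 genes for the difference between conditions. The difference from amygdala gave 6 genes at 0.01, 247 with DESeq2, 21 after the GC and length correction and 14 with the animal as a block. The difference from hypothalamus gave 20 genes at 0.01, 1380 with DESeq2, 265 with no filter, 85 after the correction and 6 with the block. The log2 fold change of Ogdhl turned from 0.03 to -0.013 after the correction.

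Leaving out 1 library gave 249 (without replicate 2 of 30 min) to 990 genes (without replicate 1 of 120 min) in controls. Without replicates 1, 3 and 5 of 30 min the counts were 464, 475 and 408, and without replicates 3, 4 and 6 of 120 min 427, 329 and 357. It gave 0 to 3 for the difference between conditions, 22 to 334 for amygdala (highest without its replicate 1 of 120 min) and 85 to 917 for hypothalamus (lowest without its replicate 3 of 30 min). Differences in gene reads ran from -1.41 to 1.88 M, in the share without feature from -1.65 to -1.14 points and in the mitochondrial share from -0.236 to 0.0721 points. Of 60 called genes named here, 35 were called in all 11 such fits. The planned fit with the sequencing index as a term could not be fitted, since the index and time coincide.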
